A study of Mus musculus with 4 samples.

Results

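The TAM family consists of the receptor tyrosine kinases Tyro3, Axl and Mertk, with the secreted ligands Gas6 and Pros1 (protein S). These 5 genes were taken by symbol from 22023 genes present in every table, and their transcripts were summed where a table listed transcripts. The family was chosen with the difference between RBP-J KO and WT already known, above all that of Axl. Differences between the groups are therefore given for its members as a description, without a test. Axl, Mertk, Gas6 and Pros1 were among the 11849 genes whose mean reached 1 FPKM (fragment counts divided by transcript length and by library size; the absolute scale of these values is unclear) over the libraries. Tyro3 was listed at 0 in every library.

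Macrophages that clear dying cells recognise phosphatidylserine on the outer face of the dying cell's membrane. Gas6 and protein S bridge this lipid to the TAM receptors, whose kinase domains then drive engulfment and dampen signalling from Toll-like and interferon receptors. Both ligands bind the lipid through a Gla domain, in which glutamate is carboxylated in a reaction that depends on vitamin K. Mertk is a standard marker of mature tissue macrophages and binds both ligands, whereas Axl binds Gas6 and is known for induction by interferon and inflammatory stimuli.

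The data are 4 RNA libraries of macrophages grown from the marrow of C57BL/6 mice aged 8 weeks, in 3 days of culture with a supernatant that supplied M-CSF equivalent to 20 ng/ml. The 2 WT libraries came from mice labelled wild-type controls. The 2 RBP-J KO libraries came from mice with floxed Rbpj alleles and LysM cre (Rbpj f/f;LysM cre), in which the recombinase is expressed from the lysozyme M (Lyz2) locus of myeloid cells. Whether the controls carried the Cre or the floxed alleles is not given in the labels. The libraries of equal replicate number are called pair 1 and pair 2 here.

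Rbpj, which encodes the DNA-binding factor of the Notch pathway, was at 355 and 573 FPKM in WT replicates 1 and 2, against 51.5 and 77.0 FPKM in the RBP-J KO libraries, 6.89-fold lower in pair 1 and 7.44-fold lower in pair 2. Of 8 macrophage markers, all were detected in every library, with a summed level of 17104 and 15461 FPKM in WT against 19333 and 12614 FPKM in RBP-J KO. In both pairs 2 of the 8 were higher and 3 lower, against 25.1% and 34.1% of all genes whose mean reached 1 FPKM. Among the lower ones, Cd14 was at 1715 and 1570 FPKM in WT against 764 and 800 FPKM in RBP-J KO. Lyz2, the locus that carries the Cre, was at 218 and 192 FPKM in WT against 94.3 and 115 FPKM in RBP-J KO. The replicate numbers differed in table layout, genes in replicate 1 and transcripts in replicate 2. They also differed in the sex-linked genes Ddx3y (193 and 174 FPKM in replicate 1, 0 in replicate 2) and Xist (0 in replicate 1, 268 and 290 FPKM in replicate 2), so that the libraries of a group came from different mice. Neutrophil markers summed to 6937 FPKM (WT) and 8252 FPKM (RBP-J KO) in pair 1, and to 268 and 946 FPKM in pair 2. Between the groups, 0 of 11849 genes passed an adjusted p of 0.05 (limma, Benjamini-Hochberg). The count at an unadjusted p under 0.05 was 524, or 4.42%.

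Axl has 3 transcripts in the replicate 2 tables, named isoforms 1, 2 and 3. Their sequences are shown at the place where isoforms 1 and 2 part, because these isoforms hold most of the Axl RNA described below. In GENCODE M21, the model matched to isoform 1 has 20 exons and that matched to isoform 2 has 19. The internal exons of the models differ only by exon 10, a coding exon of 27 bases (9 codons) at chr7:25773099-25773125 on the minus strand of GRCm38, which encodes a short stretch outside the cell close to the membrane. Capitals mark this exon, with 30 bases of the neighbouring exons on either side in lower case. The models also differ in the lengths of their first and last exons, and are 4265 and 3899 bases long.
Axl isoform 1: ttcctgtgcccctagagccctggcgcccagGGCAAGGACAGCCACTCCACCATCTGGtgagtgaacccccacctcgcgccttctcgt
Axl isoform 2: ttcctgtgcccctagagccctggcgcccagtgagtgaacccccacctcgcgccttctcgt
GENCODE pairs isoforms 1 and 3 with the same model, so that the sequence special to isoform 3 is not shown. Mertk, Gas6, Pros1 and Tyro3 each have 1 transcript in these tables.

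Because RBP-J binds DNA, the promoters of the members were searched for the core of its motif, TGGGAA, on both strands. The windows came from RefSeq (GRCm38.p6), with 1 window for each of the 5 genes. Each runs from 250 bases before to 50 bases after 1 annotated start of its gene. Axl and Tyro3 begin further upstream than the start used. Only 59 bases of the Axl window, and fewer of the Tyro3 window, therefore lie upstream of every RefSeq transcript. TGGGAA was found in none of the 5 windows, and in 25.6% of all 32851 windows of this length. This says only that these letters are not in these windows. The AP-1 motif TGANTCA was also in none of the 5, against 7.81% of all windows. The GC box GGGCGG, a motif of Sp1, was in each of the 5 windows, with 2 matches for Axl, 4 for Mertk, 6 for Tyro3, 4 for Gas6 and 5 for Pros1. It was in 35.7% of all windows. The 3 motifs were searched separately, so that overlapping matches would each count.

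The part of the windows upstream of every RefSeq transcript is shown for the receptors that were detected. Capitals mark matches to GGGCGG, here read on the opposite strand as CCGCCC. The Axl stretch lies at chr7:25788925-25788983 on the minus strand and the Mertk stretch at chr2:128698665-128698914 on the plus strand of GRCm38.p6.
Axl upstream: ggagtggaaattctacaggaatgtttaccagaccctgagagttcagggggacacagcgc
Mertk upstream: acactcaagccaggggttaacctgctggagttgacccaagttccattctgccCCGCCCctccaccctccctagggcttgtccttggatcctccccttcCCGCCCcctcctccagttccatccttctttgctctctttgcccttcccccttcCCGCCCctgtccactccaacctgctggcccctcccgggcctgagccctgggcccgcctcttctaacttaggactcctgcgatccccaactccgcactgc
The Axl stretch holds none of the 3 motifs, since both GC boxes of its window lie nearer to or past the start used for the window. The Mertk stretch holds 3 of the 4 GC boxes of its window.

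Axl was the member with the largest difference between the groups. It stood at 117 FPKM in WT replicate 1 and 16.1 FPKM in WT replicate 2, and at 825 FPKM in RBP-J KO replicate 1 and 226 FPKM in RBP-J KO replicate 2. Both RBP-J KO libraries were above both WT libraries. The group means (SD, n = 2) were 66.4 ± 71.2 FPKM in WT against 525 ± 424 FPKM in RBP-J KO. Inside the pairs Axl was 7.07-fold higher in pair 1 and by 14.1-fold in pair 2. On the scale of log2(FPKM + 1), which understates changes of low genes, the difference was 2.81 in pair 1 and 3.73 in pair 2, with a mean of 3.27 (SE 1.13). In both pairs at once, 11 of 11849 genes, Axl included, were higher by at least the smaller of these differences. A difference of at least 1.5-fold upwards in both pairs was found for 457 genes, 3.86% of those tested, and groups did not overlap upwards for 11.7%. Nothing is read from Axl being among them, since it was chosen from this difference.

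The level of Axl also differed between the replicate numbers. It was 7.28-fold higher in replicate 1 than in replicate 2 among the WT libraries and 3.66-fold higher among the RBP-J KO libraries. Averaged over the groups, 1.86% of tested genes differed more than Axl between the replicate numbers. The size of its difference between the groups moved with the libraries used, from a log2 difference of 1.88 without WT replicate 2 to 4.67 without WT replicate 1. Relative to other genes, Axl was above 66.1% of tested genes in WT replicate 1 and above 22.4% in WT replicate 2, but above 96.2% and 83.8% in the RBP-J KO libraries.

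Mertk was expressed at similar levels in the WT libraries and differed little between the groups. It stood at 245 and 205 FPKM in WT against 366 and 237 FPKM in RBP-J KO. RBP-J KO replicate 1 was the highest library, and RBP-J KO replicate 2 lay between the WT libraries, so the groups overlapped. The means (SD, n = 2) were 225 ± 28.4 FPKM in WT against 301 ± 90.8 FPKM in RBP-J KO. Mertk was 1.49-fold higher in pair 1 and by 1.16-fold in pair 2, a mean log2 difference of 0.39 (SE 0.28). Without RBP-J KO replicate 1 this difference was 0.08. In every library Mertk was above at least 81.2% of the tested genes.

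Tyro3, the TAM receptor best known from the nervous system, was listed at 0 in all 4 libraries, so that no ratio between the groups can be given.

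**Figure D1:**
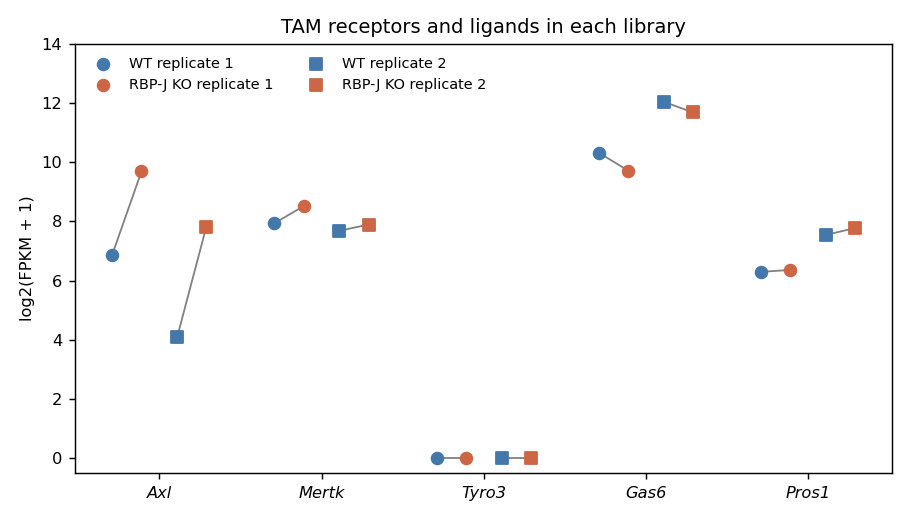
Level of the 5 genes in each library, as log2(FPKM + 1); circles are replicate 1, squares replicate 2, blue WT and orange RBP-J KO, and a line joins libraries of equal replicate number. Axl is higher in RBP-J KO by 2.81 and 3.73 in the pairs, Tyro3 lies at 0, and Gas6 and Pros1 differ more between the replicate numbers than between the groups.

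Because Axl differed far more than Mertk, the makeup of the receptor RNA was different in the groups. FPKM is scaled by transcript length, so levels of different genes were set side by side within a library. The unit of the deposited values was inferred and their scaling is not given, so the shares and ratios between genes here and below rest on that reading. Axl made up 32.3% and 7.27% of the summed TAM receptor FPKM in WT replicates 1 and 2, and 69.3% and 48.7% in RBP-J KO. In WT, Mertk exceeded Axl 2.10-fold in replicate 1 and 12.8-fold in replicate 2. In RBP-J KO replicate 1 Axl exceeded Mertk 2.26-fold, while in replicate 2 the receptors were near parity, with Mertk 1.05-fold above Axl. The summed receptor level was 362 and 221 FPKM in WT against 1191 and 463 FPKM in RBP-J KO. The groups did not overlap in this sum, but nothing is read from that, since it contains Axl, which was chosen from this difference. Mertk alone overlapped.

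Gas6, which binds all TAM receptors, was by far the more abundant ligand. It stood at 1279 and 4226 FPKM in WT against 841 and 3291 FPKM in RBP-J KO, above at least 96.4% of the tested genes in each library. The replicate 2 libraries were the higher ones in both groups, and the groups overlapped. Gas6 was 1.52-fold lower in RBP-J KO in pair 1 and 1.28-fold lower in pair 2, a mean log2 difference of -0.48 (SE 0.89). The step between the replicate numbers was larger, 3.30-fold in WT and 3.91-fold in RBP-J KO, and 3.35% of tested genes had a larger one. The direction of the group difference depends on comparing like replicate numbers: without RBP-J KO replicate 1 the log2 difference was 0.50, and without WT replicate 2 it was 0.38.

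Pros1, which encodes protein S, an anticoagulant of plasma and a TAM ligand, had close levels inside each pair. In pair 1 its level was 77.7 FPKM for WT and 81.3 FPKM for RBP-J KO, and in pair 2 it was 186 and 219 FPKM. These are ratios of 1.05 and 1.18, with a mean log2 difference of 0.15 (SE 0.65), and the groups overlapped. The step from replicate 1 to replicate 2 was 2.40-fold in WT and 2.69-fold in RBP-J KO. The sign again rested on the libraries compared, with log2 differences of -0.48 without WT replicate 1 and -0.56 without RBP-J KO replicate 2.

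Gas6 made up 94.3% and 95.8% of the summed ligand FPKM in WT and 91.2% and 93.8% in RBP-J KO. The summed ligand level per summed receptor level was 3.75 and 20.0 in WT and 0.775 and 7.58 in RBP-J KO. This ratio was lower in RBP-J KO inside each pair, while RBP-J KO replicate 2 was above WT replicate 1. Nothing is read from the ratio, since its receptor sum contains Axl, which was chosen from the difference between the groups. Gas6 is thus the TAM RNA with the highest level in all libraries, though in RBP-J KO replicate 1 Axl was nearly level with it (825 against 841 FPKM). Only in that library did the summed receptors exceed the summed ligands.

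**Figure D2:**
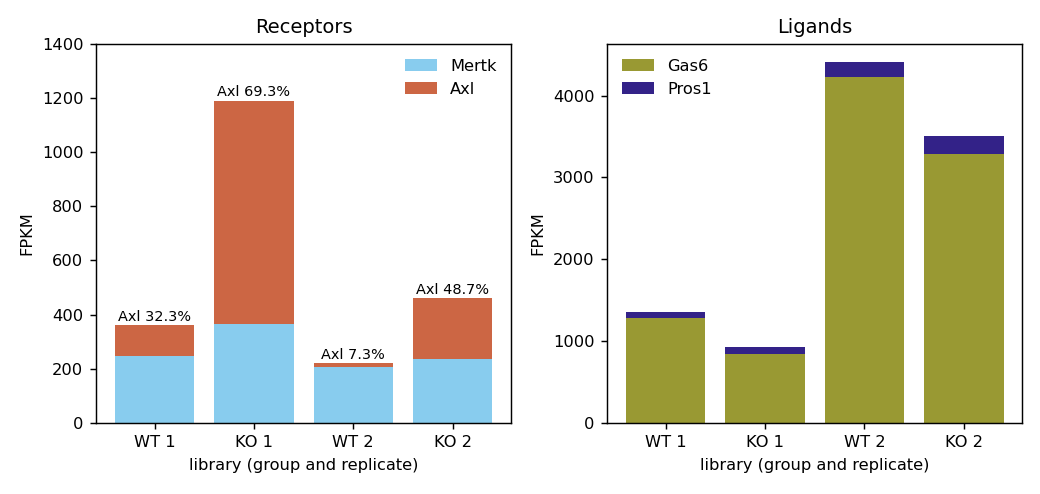
Stacked FPKM of the detected receptors (left, Mertk and Axl, with the percentage that is Axl) and ligands (right, Gas6 and Pros1) in each library. Axl is 32.3% and 7.3% of the receptor level in WT and 69.3% and 48.7% in RBP-J KO, and the ligand level is set mostly by the replicate number.

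Across all tested genes, the members sat at very different places of the comparison. Axl lay among the genes with the largest differences upwards in both pairs, and Mertk, Gas6 and Pros1 lay within the bulk. Mertk and Pros1 were higher in both pairs, as were 25.1% of all tested genes, and Gas6 was lower in both, as were 34.1%. For groups that did not overlap downwards the share was 18.2%, and Gas6 was not among them.

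**Figure D3:**
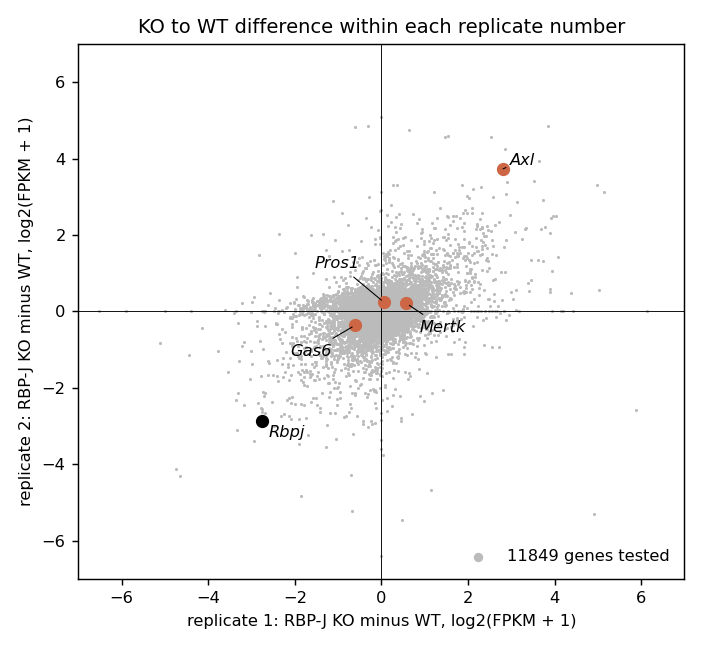
Difference between RBP-J KO and WT on the scale of log2(FPKM + 1) in pair 1 (horizontal) against pair 2 (vertical) for each of 11849 tested genes (grey). Axl lies at 2.81 and 3.73, Mertk, Gas6 and Pros1 lie between -0.60 and 0.58 on each axis, and Rbpj (black) lies at -2.76 and -2.88.

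The replicate 2 tables resolve Axl into its transcripts, with 1 library per group and therefore no replicate check. Isoform 1, whose matched model holds exon 10, was at 0.56 FPKM in WT against 139 FPKM in RBP-J KO. Isoform 2, without that exon, was at 12.0 and 85.2 FPKM, 7.12-fold higher in RBP-J KO. Isoform 3, matched to the same model as isoform 1, was at 3.52 and 1.17 FPKM. Isoform 1 therefore held 3.49% of the Axl level in WT and 61.7% in RBP-J KO, isoform 2 held 74.6% and 37.8%, and isoform 3 held 21.9% and 0.519%. The share of isoform 1 may therefore differ from the share of Axl RNA with exon 10. Among 2115 genes with several transcripts and at least 10 FPKM in both replicate 2 libraries, 231 (10.9%) had a different leading transcript in the libraries. For 1.09% of them, or 23 genes with Axl among them, the share of a transcript changed by at least the 58.2 percentage points of Axl, against a median of 4.62. These isoforms share most of their exons, so the split is an estimate by the authors' software, and at 16.1 FPKM of Axl in WT it rests on a low level. With the highest transcript in place of the sum, the mean log2 difference of Axl over the pairs was 3.12.

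**Figure D4:**
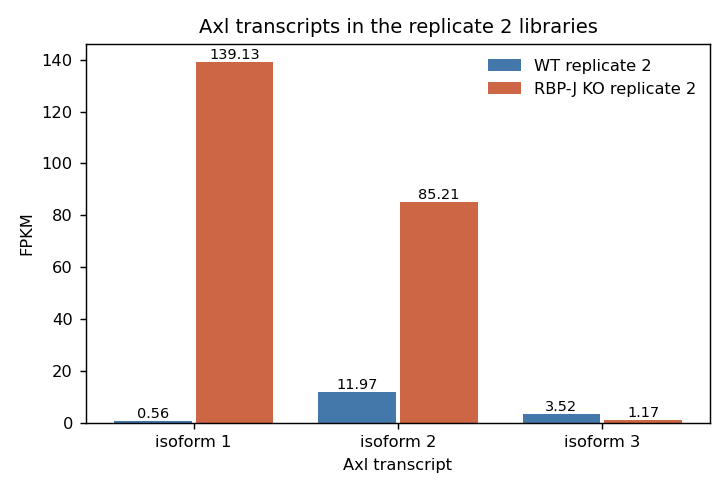
FPKM of the Axl transcripts in WT replicate 2 (blue) and RBP-J KO replicate 2 (orange), 1 library each. Isoform 1 goes from the lowest of the 3 in WT (0.56) to the highest in RBP-J KO (139.13), and isoform 3 is below 4 FPKM in both.

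The genes whose pattern was most like each member were found by the root mean square distance between log2(FPKM + 1) profiles over the 4 libraries, each centred on its own mean, among 9228 genes whose mean reached 10 FPKM. For Axl these were Runx3, a Runt domain transcription factor (distance 0.36), Ly6a, the surface protein Sca-1 (0.44), and Mefv, which encodes the inflammasome sensor pyrin (0.46). Runx3 was at 15.3 and 1.91 FPKM in WT against 69.6 and 25.8 FPKM in RBP-J KO. Ly6a was at 662 and 135 FPKM in WT against 5185 and 781 FPKM in RBP-J KO. Like Axl, both were highest in RBP-J KO replicate 1 and lowest in WT replicate 2. Mertk had closer neighbours, Tmem64 (0.025), Prex1, an exchange factor for Rac (0.027), and the kinase Lrrk1 (0.030). The nearest gene to Gas6 was Mrc1, the mannose receptor CD206 (0.11), with 1351 and 4263 FPKM in WT against 813 and 2807 FPKM in RBP-J KO, followed by Slc25a23 (0.12) and Cbx6 (0.13). Those nearest to Pros1 were Emb (0.089), Arhgef3 (0.096) and Mex3b (0.11). With 4 libraries such likeness is only a description.

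Macrophages are not the only cells with TAM RNA, so markers of other cells were examined beside Axl. In bulk RNA, fewer cells of a type and less RNA per cell cannot be told apart. Of 10 stromal and endothelial markers, 6 reached a mean of 1 FPKM, and the list summed to 59.9 and 9.73 FPKM in WT against 141 and 21.1 FPKM in RBP-J KO. The stromal collagens Col1a1, Col1a2 and Col3a1 were at or below 2.47 FPKM in every library and Pdgfrb at or below 0.44. Kdr, the VEGF receptor of endothelial cells, made up most of the sum and had a course like that of Axl, at 36.2 and 6.20 FPKM in WT against 114 and 17.2 FPKM in RBP-J KO. Pecam1 was at 4.32 and 0.87 FPKM in WT against 13.2 and 2.52 FPKM in RBP-J KO. Of the 6 tested markers, 3 were higher in both pairs (Kdr, Pecam1 and Cdh5) and 3 lower (Col1a1, Col1a2 and Sparc). Their median log2 difference was 0.003. Sparc was at 5.94 and 1.21 FPKM in WT against 2.33 and 0 FPKM in RBP-J KO. The part of stromal or endothelial RNA in the Axl values was not tested.

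The 6 dendritic cell markers summed to 6.36 and 1.09 FPKM in WT against 74.1 and 2.77 FPKM in RBP-J KO, so that RBP-J KO replicate 1 stood apart. There Ccr7 was at 32.0 FPKM, Siglech at 22.4 FPKM and Flt3 at 12.7 FPKM. In pair 2, Flt3 and Siglech were at or below 1.31 FPKM and Ccr7, Zbtb46 and Clec9a were listed at 0. The part of dendritic cell RNA in the Axl values was not tested. Neutrophil markers were higher in RBP-J KO in both pairs for 6 of 8 genes, against 25.1% of all tested genes. Their median log2 difference was 0.29 in pair 1 and 1.93 in pair 2. For 0 of the 8 the groups did not overlap, against 11.7% of all tested genes upwards and 18.2% downwards. An unadjusted p under 0.05 (limma) was found for 0 of the 8, against 4.42% of all tested genes. The part of neutrophil RNA in the Axl difference was not tested. Megakaryocyte and platelet markers, relevant to Gas6 and Pros1 as platelet proteins, summed to 3497 and 3031 FPKM in WT against 2807 and 4324 FPKM in RBP-J KO. Most of this was Pf4, which macrophages also express. Ppbp was at 404 and 8.00 FPKM in WT against 271 and 21.2 FPKM in RBP-J KO, Itga2b at 32.2 and 0 against 36.1 and 3.69 FPKM, and Gp9 at 9.93 and 0 against 9.28 and 0 FPKM. Their part in the values of Gas6 and Pros1 was not tested. Erythroid markers summed to at most 6.63 FPKM and lymphocyte markers to at most 42.1 FPKM.

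Genes known to act with the TAM receptors were read from the fit over all genes, in which none passed the adjusted threshold. Over all tested genes the median log2 difference was -0.05, and 2.19% were higher and 2.24% lower at an unadjusted p under 0.05 (limma). As background for the list counts below, RBP-J KO exceeded WT in each pair for 25.1% of genes and was below it for 34.1%. By at least 1.5-fold in each pair, these shares were 3.86% upwards and 3.63% downwards. Up to 4 genes per list were named by the size of the smaller within-pair difference, and further names were chosen after their values were seen.

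Of 22 genes of TAM signalling 20 were tested, with a median log2 difference of 0.12 (0.28 in pair 1 and 0.10 in pair 2). This median was -0.04 without RBP-J KO replicate 1, 0.06 without WT replicate 2, 0.20 without WT replicate 1 and 0.44 without RBP-J KO replicate 2. In both pairs 11 were higher and 4 lower. By at least 1.5-fold 2 were higher, among them Vav2, and 2 lower, Ptk2 and Nck2. Vav2, a guanine nucleotide exchange factor, was 2.42-fold and 2.39-fold higher, with a log2 difference of 1.24 (SE 0.19; limma, Benjamini-Hochberg adjusted p = 0.488). Its libraries lay at 35.1 and 33.4 FPKM in WT against 85.0 and 80.0 FPKM in RBP-J KO, with little spread inside a group. Ptk2, the focal adhesion kinase FAK, was at 71.3 and 49.5 FPKM in WT against 15.2 and 18.5 FPKM in RBP-J KO, a log2 difference of -1.76 (SE 0.28; limma, Benjamini-Hochberg adjusted p = 0.488). Nck2, an adaptor that links kinases to actin, was 2.54-fold and 1.62-fold lower.

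The SOCS proteins and Twist factors are the known brakes that TAM signalling induces on inflammation. Socs1 was at 2.99 and 4.16 FPKM in WT against 5.63 and 4.45 FPKM in RBP-J KO. Socs3 was at 3.78 and 4.18 FPKM in WT against 15.8 and 6.28 FPKM in RBP-J KO, so that both RBP-J KO libraries were above WT. Twist1 and Twist2 were listed at 0 in every library. Ifnar1, the interferon receptor chain with which Axl associates, was 1.23-fold higher in pair 1 and at a ratio of 0.746 in pair 2.

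Other receptors and bridging proteins for phosphatidylserine went both ways, with 9 of 18 tested genes higher and 9 lower in both pairs (median log2 difference 0.08; 22 genes in the list). The median was -0.05 without RBP-J KO replicate 1, -0.07 without WT replicate 2, 0.23 without WT replicate 1 and 0.41 without RBP-J KO replicate 2. At least 1.5-fold higher in both were 3, Itgb5, Itgav and Cd300a, and 1 was lower, Cd36. Cd300a, an inhibitory receptor that binds the lipid directly, had little spread, with 186 and 158 FPKM in WT against 367 and 348 FPKM in RBP-J KO (log2 difference 1.06, SE 0.19; limma, Benjamini-Hochberg adjusted p = 0.528). Itgav and Itgb5 encode the chains of the vitronectin receptor alpha-v beta-5. Itgav was at 412 and 77.2 FPKM in WT against 669 and 169 FPKM in RBP-J KO, and Itgb5 at 744 and 313 FPKM in WT against 1568 and 576 FPKM in RBP-J KO. In both genes RBP-J KO replicate 2 lay below WT replicate 1, so the groups overlapped. Itgb3, which encodes the integrin chain beta-3, was lower in both pairs. It stood at 68.48 and 26.8 FPKM in WT against 51.95 and 13.25 FPKM in RBP-J KO, and its groups overlapped too. Mfge8, the ligand that joins alpha-v beta-5 to the lipid, was lower, at 51.8 and 65.2 FPKM in WT against 37.2 and 39.2 FPKM in RBP-J KO. Cd36, a scavenger receptor, was at 5448 and 5231 FPKM in WT against 1571 and 3044 FPKM in RBP-J KO, 3.47-fold and 1.72-fold lower (limma, Benjamini-Hochberg adjusted p = 0.912).

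Differences were mostly small in the machinery of engulfment itself. Of 19 tested genes of 20, 6 were higher and 7 lower in both pairs, with a median log2 difference of 0.05, and none had an unadjusted p under 0.05. The median was -0.09 without RBP-J KO replicate 1, -0.03 without WT replicate 2, 0.06 without WT replicate 1 and 0.13 without RBP-J KO replicate 2. Tgm2, a transglutaminase that acts with the integrin beta-3 in uptake, was the 1 gene at least 1.5-fold higher in both, at 511 and 111 FPKM in WT against 1011 and 401 FPKM in RBP-J KO. Its groups overlapped, since RBP-J KO replicate 2 lay below WT replicate 1. The other genes named by the rule were Rac2, Slc29a3 and Rhog, with folds between 1.17 and 1.77. Sirpa, the receptor of the CD47 signal that stops engulfment, was 1.26-fold and 1.08-fold higher, Cd47 1.82-fold and 1.20-fold, and Ptpn6, the phosphatase SHP-1 recruited by Sirpa, 1.60-fold and 1.29-fold. Cd24a, the fourth gene named from this list of 5, had ratios of 0.958 and 0.996. The 5 had a median log2 difference of 0.22, which was -0.03 without RBP-J KO replicate 1, 0.08 without WT replicate 2, 0.56 without WT replicate 1 and 0.71 without RBP-J KO replicate 2.

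The ligands need the vitamin K cycle for their maturation. Of 12 tested genes of this cycle and of Gla proteins (16 in the list), 0 were higher and 6 lower in both pairs, against 25.1% and 34.1% of all tested genes. The median log2 difference was -0.22. It was -0.43 without RBP-J KO replicate 1 or without WT replicate 2, -0.15 without WT replicate 1 and -0.27 without RBP-J KO replicate 2. Ggcx, the carboxylase that modifies the Gla domains of Gas6 and protein S, was at 22.4 and 21.8 FPKM in WT against 16.3 and 17.5 FPKM in RBP-J KO. Vkorc1l1, a reductase that recycles vitamin K, was at 68.0 and 64.9 FPKM in WT against 44.4 and 47.4 FPKM in RBP-J KO (log2 difference -0.52, SE 0.19; limma, Benjamini-Hochberg adjusted p = 0.999). In Ggcx and Vkorc1l1 the groups did not overlap, which held downwards for 4 of the 12 and for 18.2% of all tested genes. Vkorc1, also in the list, differed little, at 224 and 236 FPKM in WT against 210 and 234 FPKM in RBP-J KO. Prrg1, a membrane protein with a Gla domain, was 3.91-fold and 3.28-fold lower at levels of at most 10.5 FPKM, and Prrg4, likewise a membrane Gla protein, was 1.59-fold and 1.76-fold lower at a level of at most 5.17 FPKM.

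The proteases that shed Axl and Mertk from the cell surface were expressed in both groups. Adam10 was at 855 and 427 FPKM in WT against 700 and 378 FPKM in RBP-J KO, and Adam17 at 528 and 495 FPKM in WT against 652 and 453 FPKM in RBP-J KO. Of the 6 genes of this list 2 were higher and 2 lower in both pairs. Rhbdf2, an adaptor that brings Adam17 to the surface, was 1.15-fold and 1.46-fold higher, its relative Rhbdf1 1.01-fold and 2.09-fold higher, and Adam9 1.36-fold and 1.42-fold lower.

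Mertk is a known target of the lipid-sensing nuclear receptors LXR, PPAR and RXR and is also induced by glucocorticoids. All 15 genes of a list of these receptors, the glucocorticoid receptor Nr3c1 and their targets were tested. In both pairs 7 were higher and 2 lower, with a median log2 difference of 0.18 (0.40 in pair 1 and 0.09 in pair 2). This median was -0.03 without RBP-J KO replicate 1, 0.27 without WT replicate 2, 0.36 without WT replicate 1 and 0.60 without RBP-J KO replicate 2. At least 1.5-fold higher in both were 4, Nr1h3, Ppard, Apoe and Rxra, or 4 of 15 against 3.86% of all tested genes. Nr1h3, which encodes LXR-alpha, was at 58.7 and 10.1 FPKM in WT against 233 and 21.1 FPKM in RBP-J KO. Its replicate 2 libraries were both below WT replicate 1, so the groups overlapped. Ppard was at 34.8 and 52.7 FPKM in WT against 78.0 and 89.9 FPKM in RBP-J KO (log2 difference 0.95, SE 0.28; limma, Benjamini-Hochberg adjusted p = 0.917). Rxra was 1.61-fold and 1.53-fold higher. Apoe, a target of LXR, was at 7163 and 10895 FPKM in WT against 15134 and 17045 FPKM in RBP-J KO, while Abca1, another target, had ratios of 1.34 and 0.616.

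**Figure D5:**
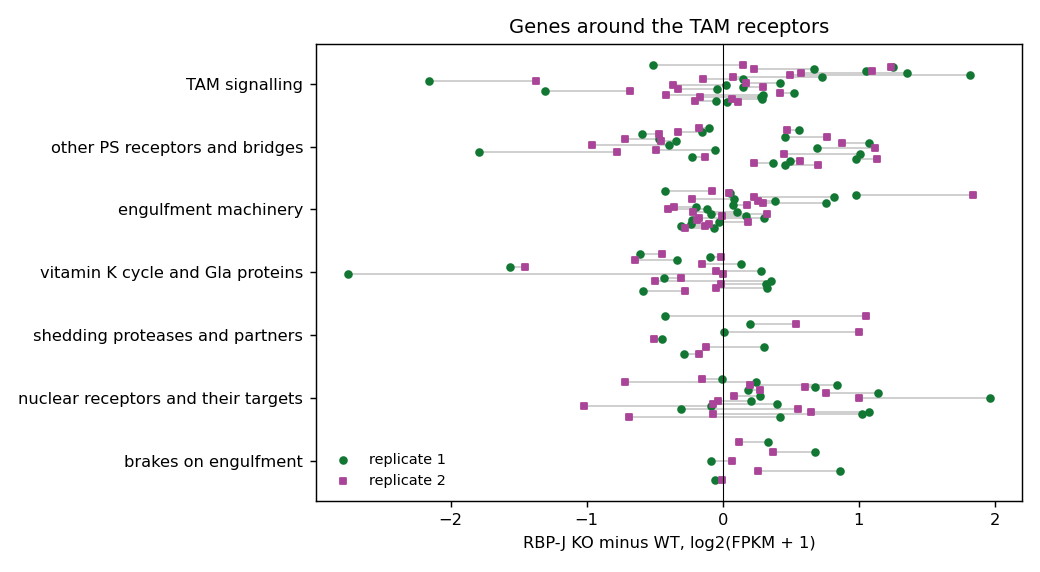
Difference between RBP-J KO and WT on the scale of log2(FPKM + 1) for the tested genes of 7 lists around the TAM receptors; each line is a gene, its circle pair 1 and its square pair 2. PS stands for phosphatidylserine. The vitamin K list holds 0 genes above 0 in both pairs and 6 below, while the other PS receptors and bridges split into 9 above and 9 below.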

How the data were processed

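The authors deposited 1 table per library, for 2 WT and 2 RBP-J KO libraries. The submitters' processing notes name TopHat, Cufflinks and mouse build mm9. Versions, annotation and scaling: not given in the sources used here. File headers name no unit, and the deposited values were read as FPKM, which Cufflinks writes. Their sums of 2124410 to 2388147 per library leave the absolute scale unclear, so minimum levels are on the scale of the files. Values scaled by length showed no whole-read steps (at best 24.5% within 0.1 of a whole number, against 20% with none), so the depth could not be derived and values carry no counting interval.

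Transcripts were summed per symbol. Of 25 symbols altered to dates, 22 were restored by description and 3 left out. In R 4.3.3 with limma 3.58.1, log2(FPKM + 1) was fitted with group as the only term and a variance trend, for genes whose mean reached 1 FPKM (two-sided, Benjamini-Hochberg, threshold 0.05); the procedure was tested on simulated data. Libraries of equal replicate number came from different mice, since their genotypes differ, and nothing states that they share a day. The p-values therefore reflect the spread of these libraries alone, in which mouse, sex and table layout are mixed. Members and lists were chosen with earlier results of these data known. Named were all members, Rbpj, up to 4 genes per pathway list with 1 sign in both pairs and the largest smaller difference, and the 3 genes nearest to each member in pattern, predicted gene models left out. A gene that the rule names in the TAM signalling list is not reported here. Alternatives covered pseudocount, filter, scaling, replicate block, trend, transcript summary and each library left out. Sequences are from RefSeq and GENCODE M21 on GRCm38, matched by symbol (5 of 5 promoters) or transcript identifier, not by position.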

Additional observations from a re-analysis of the deposited data

How the results depend on the processing

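Over the 13 alternatives, 0 genes passed the adjusted threshold overall and in each of the 7 pathway lists, as in the model reported. With the replicate number as a block, 0 genes passed and 1557 had an unadjusted p under 0.05, against 524 without it; the deviations of same-numbered libraries from their group means had a correlation of 0.64 across genes, but with 2 numbers this does not establish pairing. The block leaves the differences of the members as they are. The log2 differences of Axl, Mertk, Gas6 and Pros1 moved by less than the spread between the pairs under the pseudocounts, filters, scalings, block, trend and transcript choices. They moved more when a library was left out: Axl ranged from 1.88 to 4.67, Mertk from 0.082 to 0.70, Gas6 from -1.47 to 0.50 and Pros1 from -0.56 to 0.86. Axl and Mertk kept their direction. Gas6 turned without RBP-J KO replicate 1 (0.50) and also without WT replicate 2 (0.38), and Pros1 turned without WT replicate 1 (-0.48) and also without RBP-J KO replicate 2 (-0.56), since these comparisons set unlike replicate numbers against each other. Tyro3, at 0 throughout, gave no value under any alternative. Without depth, the precision of low values such as Axl in WT replicate 2 is unknown.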
